A study of Mus musculus with 6 samples.

Results

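The genes described here are those of the parathyroid hormone-related protein (PTHrP) relay of growth cartilage: the ligand gene Pthlh, the receptor gene Pth1r, the salt-inducible kinase genes Sik1, Sik2 and Sik3, the coactivator genes Crtc1, Crtc2 and Crtc3, and the zinc finger gene Zfp521. They were chosen by symbol, as 9 of the 24346 genes listed for each library, and all 9 had the mean of at least 1 FPKM (fragments per kilobase of transcript, scaled to the depth of the library) that was required for testing. The libraries were RNA-seq of chondrocyte layers excised by laser from a growth cartilage of the mouse cranial base, the spheno-occipital synchondrosis. There were 3 FP libraries and 3 RR libraries, with the numbers 11, 14 and 16 in each group. The series concerns flat and round chondrocytes, but no label spells out FP or RR, so the codes are kept. All 6 libraries came from mice labelled Gli1CreERT2; Tomato flox, in which tamoxifen activates a Cre recombinase made by Gli1-expressing cells, and all mice received tamoxifen at postnatal day 3. The sources used here do not give the age at collection or the number of mice behind a library. No library is labelled as untreated or as lacking the transgenes.

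PTHrP is a secreted relative of parathyroid hormone. In the growth plate it is made by resting and periarticular chondrocytes and acts on neighbouring chondrocytes through the receptor PTH1R, which signals through the stimulatory G protein, cyclic AMP and protein kinase A. In mouse cartilage this signal delays hypertrophy: protein kinase A phosphorylates the salt-inducible kinases, which then no longer hold the CRTC coactivators and class IIa histone deacetylases in the cytoplasm. Indian hedgehog from prehypertrophic cells in turn maintains Pthlh, which closes a feedback loop.

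Of the 9 genes, 1 was higher in FP (Pth1r), 1 was lower in FP (Pthlh) and 7 did not pass limma's test at an adjusted p under 0.05. Over all 14789 genes tested, 0.967% passed, 0.554% higher and 0.412% lower in FP. In 2 of the 9 genes (Pth1r, Sik3) every FP library was above every RR library, in another 2 (Pthlh, Sik2) it was below, and in 5 the groups overlapped. Over all genes tested, the groups did not overlap for 16%, with 8.74% higher and 7.28% lower in FP. The median log2 change, FP minus RR, was 0.21 over the 9 genes and 0.02 over all genes tested. After rescaling without small RNAs and the 100 highest genes, the median over all genes was -0.12, and 73 genes were higher and 85 lower in FP, against 82 higher and 61 lower as deposited. None of the 9 genes changed sign under that rescaling or under quantile normalization.

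The ligand gene Pthlh (mm10, chr6:147252101-147264183, minus strand) was far lower in FP. It stood at 5.98, 7.69 and 3.58 FPKM in FP libraries 11, 14 and 16, against 46.3, 52.1 and 57.7 FPKM in RR libraries 11, 14 and 16. Every FP library was low, and the highest of them remained well below the lowest RR library. The mean was 5.75 ± 2.06 FPKM in FP and 52.0 ± 5.68 FPKM in RR (SD, n = 3 each), so that the level in RR was 9.05 times that in FP. On the scale of log2(FPKM + 1) the change was -3.02 ± 0.30 (SE; 95% interval -3.7 to -2.33; limma adjusted p = 0.00418). By size of change, Pthlh was number 67 of the 14789 genes tested. Among the genes tested in each library, its level was at a median percentile of 58 in FP and 95.9 in RR. These levels rest on about 38, 24 and 15 fragments in FP libraries 11, 14 and 16, and on about 190, 140 and 263 in the RR libraries with these numbers. Leaving out any 1 library kept the call, with an adjusted p of at most 0.023, but it was lost without both libraries numbered 14 or both numbered 16 (adjusted p = 0.0588 and 0.0904). Of 7 perichondrial and fibroblast markers tested, 0 passed limma's adjusted test (0 higher and 2 lower at an unadjusted p under 0.05). In 2 of them the groups did not overlap, both lower in FP as Pthlh was. Of all genes tested, 7.28% were lower without overlap and 10.3% had such a p in either direction. The groups overlapped for Postn, Col3a1, Thy1, Prrx1 and Dpt, with log2 changes of 0.43, 0.24, 0.15, -0.01 and -0.8. Scx, a tendon and ligament transcription factor gene, was at 2.8 ± 0.931 FPKM in FP and 7.37 ± 3.52 FPKM in RR (limma adjusted p = 0.333), and Pdgfra, a growth factor receptor gene of mesenchymal cells, at 6.81 ± 0.310 FPKM in FP and 13 ± 3.66 FPKM in RR (limma adjusted p = 0.333). The part of such cells in the Pthlh difference was not tested. In bulk RNA, fewer cells that express a gene and less RNA per cell cannot be told apart, here and in every difference given for the other genes.

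The sequence before the annotated starts of Pthlh is shown because this gene had the largest change of the 9. It is the RefSeq promoter of build GRCm38.p6 as far as it lies outside annotated Pthlh exons, chr6:147264184-147264263, given 5′ to 3′ on the gene's own strand.
Pthlh: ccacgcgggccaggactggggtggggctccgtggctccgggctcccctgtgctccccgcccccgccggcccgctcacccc
Windows of 250 bases before to 50 after each RefSeq start were searched on both strands for the cyclic AMP response element TGACGTCA, its short form TGACG, and the GLI motif TGGGTGGTC, the motif of the factors that act at the end of hedgehog signalling. The short form lies within the full element and was counted there too. The Pthlh window held none of the 3 motifs. Over all 32851 promoters in the table, 20.8% held the short form, 1.79% the full element and 0.253% the GLI motif.

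The receptor gene Pth1r (chr9:110722085-110747145, minus strand) ran the other way. It reached 328, 463 and 394 FPKM in FP libraries 11, 14 and 16, against 95, 103 and 138 FPKM in RR libraries 11, 14 and 16. The lowest FP library was more than the highest RR library by a wide margin. The mean was 395 ± 67.5 FPKM in FP and 112 ± 22.8 FPKM in RR (SD, n = 3 each), 3.53 times as high in FP. The log2 change was 1.82 ± 0.29 (SE; 95% interval 1.16 to 2.48; limma adjusted p = 0.0279). Pth1r was the most highly expressed of the 9 genes in all 6 libraries, at a median percentile of 99 in FP and 98.2 in RR. Pth1r RNA was thus abundant in both groups, including the RR libraries in which it was lower. Its call was lost when FP 11, FP 14, FP 16, RR 11 or RR 14 was left out (adjusted p = 0.0574, 0.141, 0.175, 0.0893 and 0.113) and was kept without RR 16 (0.0444). The change itself lay between 1.69 and 1.97 in those fits.

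Pth1r is also a gene of osteoblasts, so the bone markers are given beside it. Of 8 osteoblast markers, all tested, 1 was higher in FP and 0 were lower by limma's test. That gene was Sp7, the osterix transcription factor, at 35.6 ± 5.77 FPKM in FP and 4.29 ± 1.24 FPKM in RR. Ibsp, the bone sialoprotein gene, was at 138, 191 and 90.8 FPKM in FP libraries 11, 14 and 16, against 41.6, 10.7 and 7.18 FPKM in the RR libraries, without overlap (log2 change 3.08 ± 0.58, limma adjusted p = 0.0571). Both genes thus ran in the direction of Pth1r, while the groups overlapped for the other 6 markers. This direction was not particular to the osteoblast list. Of 8 chondrocyte markers tested, 5 were also higher in FP without overlap, against 8.74% of all genes tested. Col10a1, the collagen X gene, was at 344 ± 42.5 FPKM in FP and 7.05 ± 6.03 FPKM in RR. Bglap, the osteocalcin gene, was at 7.44, 5.69 and 2.77 FPKM in FP libraries 11, 14 and 16 and at 32.5, 0 and 0.651 FPKM in the RR libraries. The summed level of the 8 markers ran from 267 to 790 FPKM in FP and from 122 to 1180 FPKM in RR, so the groups overlapped. Col1a1, a collagen I gene, was the largest part of that sum in every library, at 393 ± 239 FPKM in FP and 456 ± 539 FPKM in RR. The part of bone cells in the Pth1r difference was not tested. Exons of Pth1r share 95 bases with Myl3, a myosin light chain gene on the other strand, which was at 2.50 ± 1.04 FPKM in FP and 2.32 ± 0.827 FPKM in RR.

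RefSeq gives Pth1r several starts. The 250 bases before the outermost, chr9:110747146-110747395 on the minus strand, are printed because only this window of the 3 found for Pth1r held the short element TGACG, here as its reverse complement, in capitals.
Pth1r: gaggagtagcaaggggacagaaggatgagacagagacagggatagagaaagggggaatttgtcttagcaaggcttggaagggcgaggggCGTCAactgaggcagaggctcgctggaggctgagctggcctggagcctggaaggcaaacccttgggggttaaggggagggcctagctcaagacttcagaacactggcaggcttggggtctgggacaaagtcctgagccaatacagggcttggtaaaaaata
The deposited values are per gene, so they do not say which start was used.

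**Figure D1:**
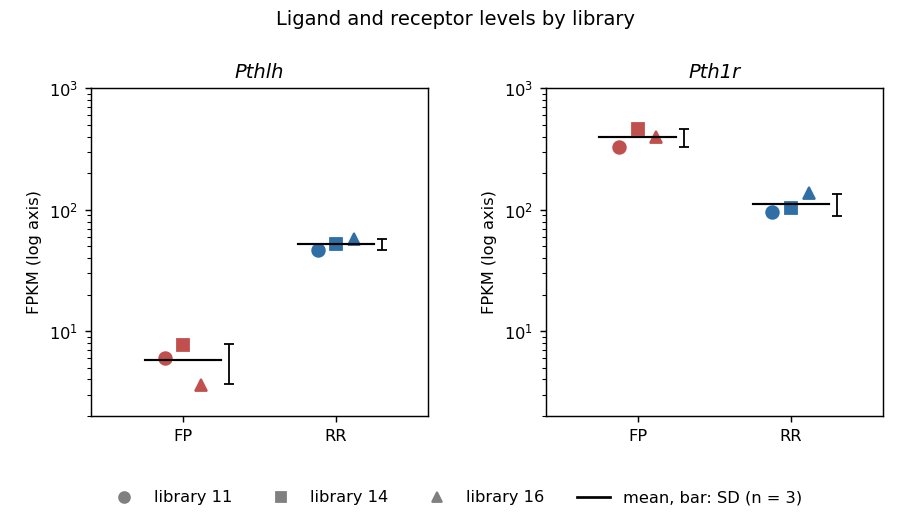
FPKM of Pthlh (left panel) and Pth1r (right panel) in each FP and RR library, on log axes of the same range, with the group mean (line) and SD (bar, n = 3). Pthlh lies between 3.58 and 7.69 FPKM in FP and between 46.3 and 57.7 FPKM in RR, while Pth1r lies between 328 and 463 FPKM in FP and between 95 and 138 FPKM in RR.

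The receptor gene stood above the ligand gene in every library, but by very different margins. The ratio of Pth1r to Pthlh was 54.8, 60.2 and 110 in FP libraries 11, 14 and 16, against 2.05, 1.97 and 2.39 in the RR libraries with these numbers. Its mean was 75.1 ± 30.5 over the FP libraries and 2.14 ± 0.222 over the RR libraries (SD, n = 3 each). Since both genes passed the test in opposite directions, the ratio is a description and was given no test. By level, Pthlh was at rank 6, 7 and 8 of the 9 genes in FP libraries 11, 14 and 16, and at rank 2 in each RR library.

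The other ligands and receptors of the family were close to undetected. Pth, which encodes parathyroid hormone, was listed at 0.447, 0 and 0 FPKM in FP libraries 11, 14 and 16 and at 0, 1.04 and 0 FPKM in the RR libraries. Pth2, which encodes a ligand of the second receptor, was at 2.49 FPKM in FP 14 and listed at 0 in the other libraries. Pth2r, the second receptor gene, ran from 0.208 to 0.828 FPKM in FP and from 0.476 to 0.712 FPKM in RR. None of these 3 reached the mean of 1 FPKM, and a value listed as 0 can be a failed estimate.

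The salt-inducible kinases are relatives of AMP-activated kinase. Sik3 is the family member whose loss in mice delays the hypertrophy of chondrocytes. None of the 3 kinase genes passed limma's adjusted test, and Sik2 was the only one of them at an unadjusted p under 0.05, as 10.3% of all genes tested were.

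Sik2 (chr9:50892801-51009073, minus strand) was at 2.27, 3.14 and 4.70 FPKM in FP libraries 11, 14 and 16, against 7.64, 5.73 and 9.77 FPKM in the RR libraries. Each FP value was below each RR value, although the highest FP and the lowest RR library were close. The mean was 3.37 ± 1.23 FPKM in FP and 7.72 ± 2.02 FPKM in RR (SD, n = 3 each), 2.29 times as high in RR. The log2 change was -1.01 ± 0.31 (SE; 95% interval -1.72 to -0.29; limma adjusted p = 0.273). Exons of Sik2 share 1429 bases with Ppp2r1b, a phosphatase subunit gene on the other strand. Ppp2r1b was at 3.97, 2.80 and 3.71 FPKM in FP libraries 11, 14 and 16, against 5.61, 4.36 and 8.42 FPKM in the RR libraries, also without overlap, with a log2 change of -0.64 ± 0.30 (limma adjusted p = 0.533). No source used here says whether strand was used in counting, so reads of the overlap may have been given to either gene, and the part this plays in the Sik2 values was not tested.

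Sik3 (chr9:46012820-46224194, plus strand) was at 16.6, 21.5 and 18.7 FPKM in FP libraries 11, 14 and 16, against 13.7, 16 and 15.9 FPKM in the RR libraries. The groups did not overlap, but the gap between FP 11 and RR 14 was narrow. The mean was 18.9 ± 2.42 FPKM in FP and 15.2 ± 1.29 FPKM in RR (SD, n = 3 each), and the log2 change was 0.30 ± 0.24 (SE; 95% interval -0.26 to 0.85; limma adjusted p = 0.773). Sik1 (chr17:31844250-31855804, minus strand), the kinase gene that cyclic AMP itself induces in many cells, was the least expressed of the 9 genes in all 6 libraries. It was at 1.12, 1.49 and 2.02 FPKM in FP libraries 11, 14 and 16, against 1.87, 2.73 and 3 FPKM in the RR libraries. The groups overlapped through FP 16 and RR 11, and the log2 change was -0.47 ± 0.32 (SE; 95% interval -1.2 to 0.25; limma adjusted p = 0.71). Its levels rest on only about 13 to 39 fragments per library.

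The Sik2 and Sik3 promoters are shown because these windows held the short element. They come from RefSeq, GRCm38.p6. The Sik2 stretch of 30 bases, chr9:51009045-51009074 on the minus strand, begins 1 base before the start and holds 2 copies in opposite orientations. The Sik3 stretch, chr9:46012570-46012819 on the plus strand, is the 250 bases before the start and holds 3 copies in the same orientation. Capitals mark TGACG or its reverse complement.
Sik2: TGACGtcggctcaCGTCAgcgccggcgcgc
Sik3: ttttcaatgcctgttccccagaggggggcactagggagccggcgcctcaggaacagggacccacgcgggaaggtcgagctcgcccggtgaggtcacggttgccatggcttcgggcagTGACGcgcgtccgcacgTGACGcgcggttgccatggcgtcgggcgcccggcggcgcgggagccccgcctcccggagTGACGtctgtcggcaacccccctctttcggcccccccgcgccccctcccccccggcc
In all, 8 windows of 6 of the 9 genes were searched, and none of Sik1, Crtc2 or Zfp521. The short form was found in 3 of them, the full element in 0 and the GLI motif in 0, and the 2 windows of Crtc1 and Crtc3 held none. A match of these letters is a description of the window and not a binding site.

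Summed over the 3 kinase genes, the level was 23.9 ± 3.33 FPKM in FP and 25.5 ± 2.88 FPKM in RR (SD, n = 3 each), and the groups overlapped. The make-up of that sum differed more than the sum did. Sik3 held 83%, 82.2% and 73.6% of it in FP libraries 11, 14 and 16, against 59.0%, 65.4% and 55.5% in the RR libraries. Sik2 held 11.3%, 12.1% and 18.5% in FP libraries 11, 14 and 16, against 32.9%, 23.5% and 34.0% in the RR libraries. Sik1 held 5.61% to 7.95% in FP and 8.06% to 11.2% in RR. Each of these shares separated the groups, and the shares are tied to each other because they sum to 100% in a library. They and the ratios with Sik2 carry the limits of that gene. Sik2 did not pass limma's adjusted test and shares exon bases with Ppp2r1b.

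The ratio of Sik3 to Sik2 was 7.32, 6.82 and 3.98 in FP libraries 11, 14 and 16, against 1.79, 2.78 and 1.63 in the RR libraries. All FP ratios were higher than all RR ratios. The mean log2 ratio differed by 1.54, with p = 0.1 in an exact two-sided permutation test of the library labels, the smallest p that 3 against 3 can give. Adjusted over the 6 ratios tested within the kinase and coactivator families, that p was 0.2. The ratio of Sik3 to Sik1, at 12.8 ± 3.09 in FP and 6.17 ± 1.04 in RR, also separated the groups (exact permutation p = 0.1, adjusted 0.2), whereas that of Sik2 to Sik1 did not (exact permutation p = 0.3, adjusted 0.45). With 3 libraries against 3, this permutation test cannot fall below 0.1 for any of these ratios.

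**Figure D2:**
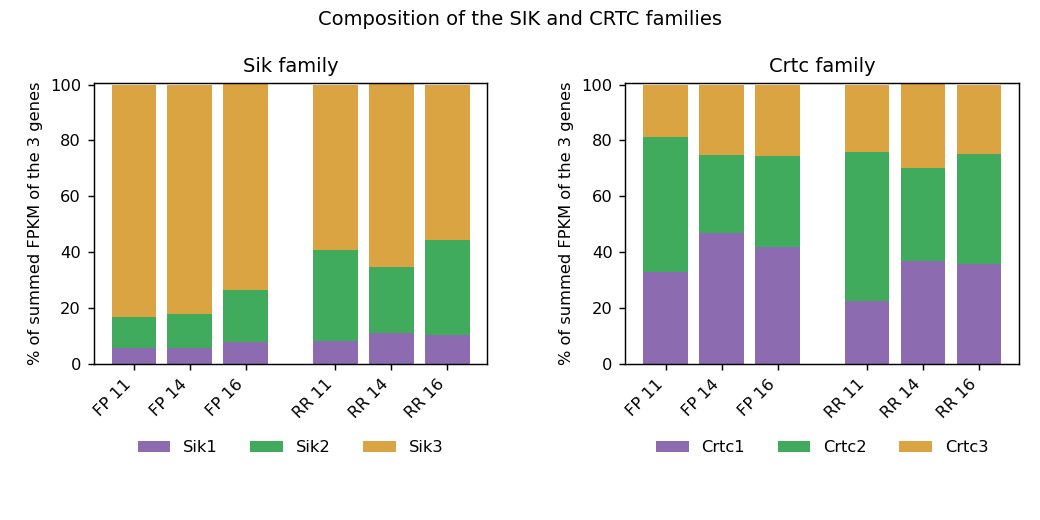
Share of the summed FPKM of the 3 Sik genes (left) and of the 3 Crtc genes (right) held by each gene, in percent, with 1 stacked bar per library and FP left of RR. Sik3 holds 73.6% to 83% in FP and 55.5% to 65.4% in RR, while the shares of every Crtc gene overlap between the groups.

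The CRTC coactivators enter the nucleus when the kinases are held in check and act there with CREB, the factor that binds cyclic AMP response elements. None of the 3 genes passed limma's adjusted test or an unadjusted p under 0.05, and the groups overlapped for each. Crtc1 (chr8:70382355-70439579, minus strand) was at 8.22, 17.6 and 16.7 FPKM in FP libraries 11, 14 and 16, against 4.93, 8.78 and 10.1 FPKM in the RR libraries. Only FP 11 lay within the range of RR. The mean was 14.2 ± 5.17 FPKM in FP and 7.95 ± 2.69 FPKM in RR, 1.78 times as high in FP, with a log2 change of 0.74 ± 0.37 (SE; 95% interval -0.1 to 1.59; limma adjusted p = 0.563). The interval reaches from just below 0 to a large rise, so the size of any Crtc1 difference was poorly fixed.

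Crtc2 (chr3:90254163-90264125, plus strand) was at 12, 10.4 and 13 FPKM in FP libraries 11, 14 and 16, against 11.6, 7.91 and 11 FPKM in the RR libraries. Crtc3 (chr7:80586627-80688877, minus strand) was at 4.70, 9.43 and 10.2 FPKM in FP libraries 11, 14 and 16, against 5.22, 7.18 and 7.06 FPKM in the RR libraries. Library 11 was the lowest for Crtc3 in both groups and FP 11 was the lowest of all. The log2 changes were 0.21 ± 0.26 for Crtc2 (SE; 95% interval -0.38 to 0.79; limma adjusted p = 0.864) and 0.23 ± 0.32 for Crtc3 (SE; 95% interval -0.51 to 0.97; limma adjusted p = 0.882). Summed over the 3 genes, the level was 24.9, 37.4 and 39.9 FPKM in FP libraries 11, 14 and 16, against 21.7, 23.9 and 28.2 FPKM in the RR libraries, with overlap through FP 11. The share of Crtc1 in that sum was 40.7% ± 7.09 in FP and 31.8% ± 7.87 in RR. The ratio of Crtc1 to Crtc3 was 1.75 ± 0.111 in FP and 1.2 ± 0.245 in RR and did not overlap (exact permutation p = 0.1, adjusted 0.2). Those of Crtc1 to Crtc2 and of Crtc2 to Crtc3 overlapped (exact permutation p = 0.4 and 0.9, adjusted 0.48 and 0.9).

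Zfp521 encodes a zinc finger protein that mouse chondrocytes make in response to PTHrP and that restrains Runx2. It was at 14.7, 20.7 and 17.9 FPKM in FP libraries 11, 14 and 16, against 13.1, 15.2 and 18.5 FPKM in the RR libraries. The groups overlapped, and RR 16 was higher than FP 11 and FP 16. The mean was 17.8 ± 3.03 FPKM in FP and 15.6 ± 2.72 FPKM in RR (SD, n = 3 each), with a log2 change of 0.18 ± 0.26 (SE; 95% interval -0.42 to 0.77; limma adjusted p = 0.892). The interval ends well short of the changes of Pthlh and Pth1r.

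**Figure D3:**
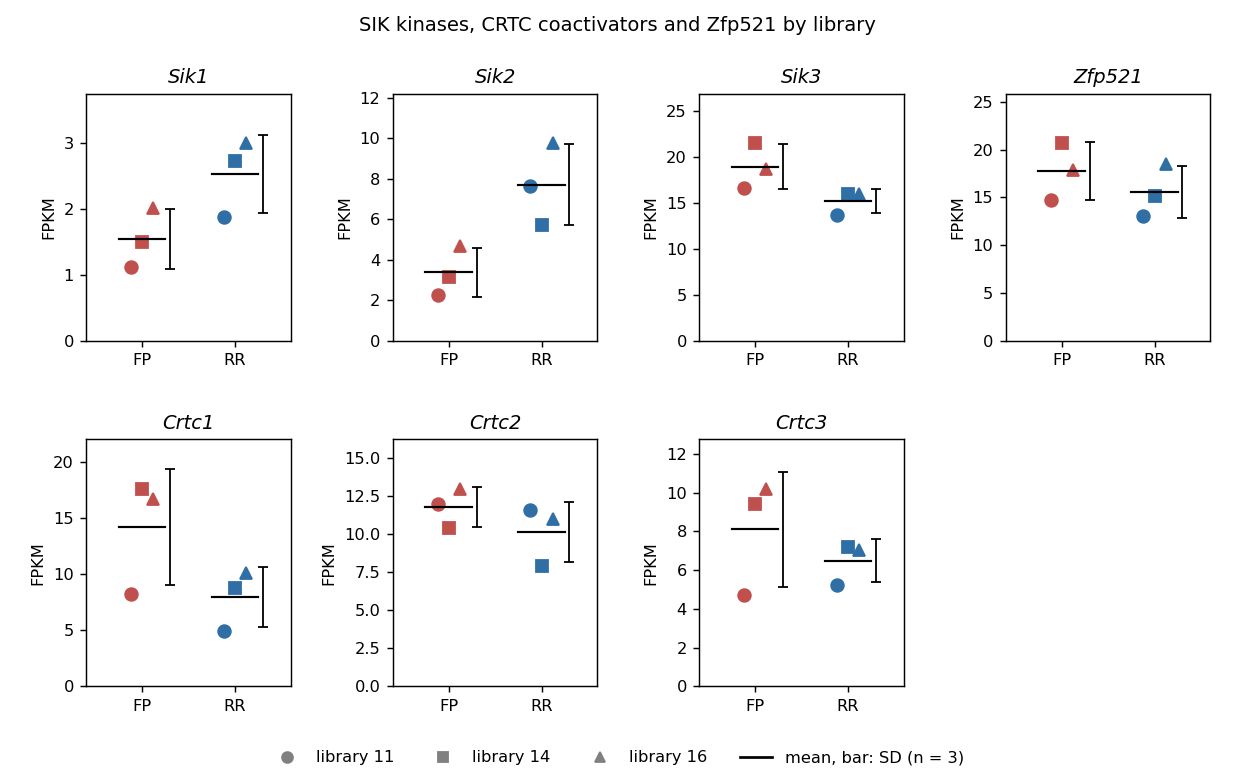
FPKM of the 3 Sik genes, Zfp521 and the 3 Crtc genes in each FP and RR library, on linear axes from 0, with the group mean (line) and SD (bar, n = 3). Only Sik2, lower in FP, and Sik3, higher in FP, have groups that do not overlap.

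By level per transcript length, the order of the 9 genes had fixed ends. Pth1r was highest and Sik1 lowest in all 6 libraries. In FP, Sik3 was at rank 2 and Zfp521 at rank 3 in every library. Crtc1 and Crtc2 shared ranks 4 and 5, and Crtc3, Pthlh and Sik2 shared ranks 6 to 8, with changes of place between libraries. In RR, Pthlh was at rank 2 in every library, Sik3 and Zfp521 held ranks 3 and 4, and Crtc1, Crtc2, Crtc3 and Sik2 shared ranks 5 to 8 in an order that differed between libraries. In RR the levels of Sik3 and Zfp521 did not differ beyond their spread, at 15.2 ± 1.29 and 15.6 ± 2.72 FPKM.

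**Figure D4:**
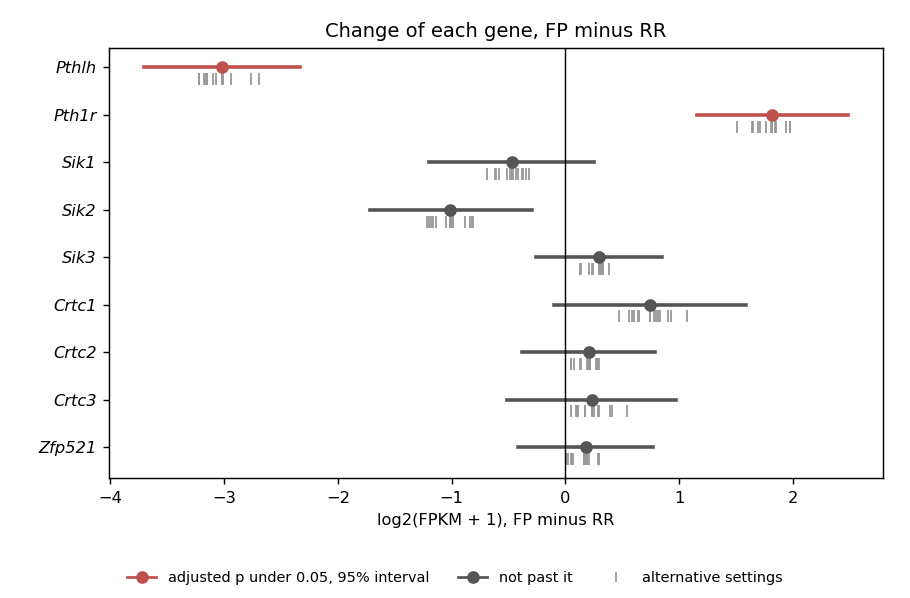
Change of each of the 9 genes as log2(FPKM + 1), FP minus RR: circles are estimates, lines 95% intervals (red where the adjusted p is under 0.05) and grey ticks the estimates under alternative settings. Pthlh stands at -3.02 and Pth1r at 1.82, and the intervals of the other genes cross 0 except that of Sik2, which ends at -0.29.

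Around the 9 genes, 92 further genes in 10 lists of the pathway were examined, of which 82 were tested. Of these, 2 were higher in FP (2.44%, against 0.554% of all genes) and 0 were lower by limma's adjusted test. At an unadjusted p under 0.05, 11 were higher and 3 lower. Such a p was reached by 10.3% of all genes tested, in either direction, the share to set beside the counts of single lists below. The groups did not overlap for 15 tested genes higher (18.3%) and 7 lower (8.54%) in FP, against 8.74% and 7.28% of all genes tested. The median log2 change of the 82 was -0.01. The lists were chosen with earlier results of these data known, so these shares are descriptions and no test of the lists.

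The genes higher in FP belong to the list of PTHrP-responsive genes of chondrocytes. Col10a1, the collagen X gene that PTHrP keeps low in mouse growth plates, was at 353, 381 and 298 FPKM in FP libraries 11, 14 and 16, against 2.99, 4.19 and 14 FPKM in the RR libraries. Ihh, the hedgehog ligand that maintains Pthlh, was at 45.5, 71.9 and 84.4 FPKM in FP libraries 11, 14 and 16, against 1.09, 1.43 and 3.93 FPKM in the RR libraries. All FP values of both genes were far higher than the RR values, with log2 changes of 5.66 ± 0.47 and 4.50 ± 0.39 (SE; limma adjusted p = 0.00202 and 0.00237). All 11 genes of this list had estimates above 0, with a median log2 change of 1.10, and for 8 of them the groups did not overlap, always with FP higher. The list mixes genes that PTHrP is known to hold back, such as Col10a1 and Runx2, with genes that it is known to sustain, such as Nkx3-2 and Ccnd1. Runx2, a driver of hypertrophy, was at 59.0 ± 6.85 FPKM in FP and 36.3 ± 12.7 FPKM in RR (limma adjusted p = 0.454). Ccnd1, the cyclin D1 gene, was at 21.0 ± 6 FPKM in FP and 8.16 ± 1.29 FPKM in RR (limma adjusted p = 0.138), and Nkx3-2, a repressor of hypertrophy, at 23.0 ± 10.6 FPKM in FP and 15.4 ± 7.15 FPKM in RR (limma adjusted p = 0.779). Sox9, Runx3 and Gli3 also had groups that did not overlap, and were named after their values were seen. Sox9, the master regulator of cartilage, was at 321 ± 46.2 FPKM in FP and 153 ± 47.2 FPKM in RR (limma adjusted p = 0.216).

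Directly downstream of the receptor, Gnas, which encodes the stimulatory G protein, was at 642 ± 53.0 FPKM in FP and 630 ± 203 FPKM in RR, and the sign of its change turned with quantile normalization and rescaling. Of the 11 receptor partners tested, 0 passed limma's adjusted test and 1, Gna12, had an unadjusted p under 0.05. Gna12, the gene of another G protein that couples to PTH1R, was at 32.7, 77.2 and 71.3 FPKM in FP libraries 11, 14 and 16, against 17.6, 20.0 and 26.8 FPKM in the RR libraries. The groups did not overlap, and the log2 change was 1.38 ± 0.37 (limma adjusted p = 0.189). Ramp2, which encodes a partner protein of such receptors, was at 7.91, 3.42 and 3.50 FPKM in FP libraries 11, 14 and 16, against 2.62, 2.39 and 1.88 FPKM in the RR libraries (limma adjusted p = 0.488). The groups were also apart for Gnaq and Gna13, higher in FP, and for the arrestin gene Arrb2, lower in FP, which were named after their values were seen.

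The genes that make, sense and remove cyclic AMP did not pass in either direction. Of 15 adenylyl cyclase and protein kinase A genes tested, 3 had an estimate above 0, the median log2 change was -0.20, and 0 passed limma's adjusted test (0 higher and 1 lower at an unadjusted p under 0.05). Adcy9, a cyclase gene, was at 4.08 ± 0.248 FPKM in FP and 6.71 ± 0.760 FPKM in RR without overlap (limma adjusted p = 0.444). Adcy1 was at 0.637 ± 0.169 FPKM in FP and 1.42 ± 0.793 FPKM in RR (limma adjusted p = 0.773). Of 9 phosphodiesterase genes tested, 0 passed limma's adjusted test (0 higher and 1 lower at an unadjusted p under 0.05). Pde7b was at 8.99, 7.93 and 6.92 FPKM in FP libraries 11, 14 and 16, against 15.8, 10.6 and 16.4 FPKM in the RR libraries (log2 change -0.75 ± 0.27, limma adjusted p = 0.361), and Pde3a was at 25.5 ± 2.1 FPKM in FP and 35.3 ± 8.26 FPKM in RR (limma adjusted p = 0.671).

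The kinase LKB1, encoded by Stk11, activates the salt-inducible kinases together with the STRAD and MO25 proteins. Stk11 was at 26.6 ± 6.81 FPKM in FP and 28.3 ± 8.55 FPKM in RR (limma adjusted p = 0.974). Cab39, which encodes MO25, was at 28.5, 30.7 and 27.6 FPKM in FP libraries 11, 14 and 16, against 10.1, 13.6 and 12.5 FPKM in the RR libraries. All FP values were more than the RR values, and the spread within each group was small. The log2 change was 1.2 ± 0.24 (limma adjusted p = 0.0737), and it passed at 0.0372 when only genes averaging 5 FPKM or more were tested. Stradb was at 1.42 ± 0.761 FPKM in FP and 2.16 ± 1.42 FPKM in RR (limma adjusted p = 0.863). Of the 5 genes of this list, 0 passed limma's adjusted test and Cab39 alone had an unadjusted p under 0.05.

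Among 14 genes of kinase substrates and the 14-3-3 proteins that hold them in the cytoplasm, 0 passed limma's adjusted test (2 higher and 0 lower at an unadjusted p under 0.05), and 10 had an estimate above 0. Hdac4, the class IIa deacetylase gene whose protein the kinases and PTHrP control in chondrocytes, was at 29.9 ± 6.45 FPKM in FP and 47.0 ± 24.3 FPKM in RR, with RR 16 at 74.6 FPKM (limma adjusted p = 0.716). Mef2c, the gene of the transcription factor that HDAC4 represses, was at 35.4, 16.1 and 16.5 FPKM in FP libraries 11, 14 and 16, against 8.79, 3.79 and 2.29 FPKM in the RR libraries. The groups did not overlap, and the log2 change was 2.04 ± 0.46 (limma adjusted p = 0.112). Ywhaq, a 14-3-3 gene, was at 60.5 ± 15.0 FPKM in FP and 36.9 ± 8 FPKM in RR without overlap (limma adjusted p = 0.479), and its relative Ywhag, named after its values were seen, was also apart.

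Of the 5 genes of the CREB family and its coactivators and the 12 CREB-CRTC target genes tested, 0 passed limma's adjusted test and 0 had an unadjusted p under 0.05. The targets had a median log2 change of -0.27, and 3 of 12 estimates lay above 0. Creb1 was at 3.16 ± 2.11 FPKM in FP and 3.16 ± 0.780 FPKM in RR (limma adjusted p = 0.974). Ep300, a histone acetyltransferase that works with CREB, was at 11.2, 10.8 and 11.3 FPKM in FP libraries 11, 14 and 16, against 13.3, 13.0 and 13.3 FPKM in the RR libraries (log2 change -0.23 ± 0.23, limma adjusted p = 0.822). Crem, both a family member and a target, was at 1.84, 1.65 and 0.688 FPKM in FP libraries 11, 14 and 16, against 2.73, 6.88 and 1.29 FPKM in the RR libraries, with RR 14 highest (limma adjusted p = 0.669). Dusp1, a phosphatase gene that CREB activates, stood at 6.3 ± 1.82 FPKM in FP and 10.1 ± 4.23 FPKM in RR (limma adjusted p = 0.66), and the target Ppargc1a, named after its values were seen, was the only one of the 12 whose groups did not overlap, lower in FP. Of 5 relatives and partners of Zfp521 tested, 0 passed limma's adjusted test (1 higher and 1 lower at an unadjusted p under 0.05). Zfp423, its closest relative, was at 3.23, 7.79 and 6.77 FPKM in FP libraries 11, 14 and 16, against 8.20, 11.2 and 13.5 FPKM in the RR libraries, without overlap (log2 change -0.83 ± 0.35, limma adjusted p = 0.456).

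**Figure D5:**
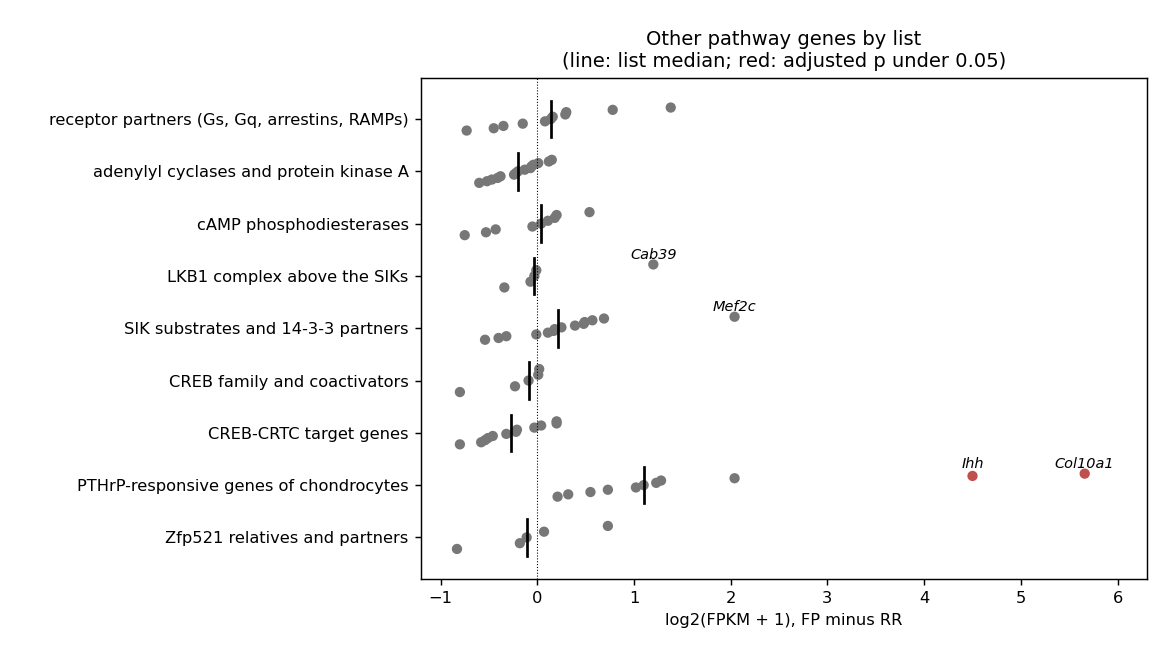
Change of the tested pathway genes other than the 9, by list, as log2(FPKM + 1), FP minus RR: each point is a gene, each black line a list's median, and red marks an adjusted p under 0.05. Only Col10a1 at 5.66 and Ihh at 4.50 are red, and the list of PTHrP-responsive genes, with a median of 1.10, is the one in which all points lie above 0.

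The genes with the pattern most like that of Pthlh over the 6 libraries were Acss3, Engase, Cxcl14, Igfbp4 and Cilp2, among 6549 candidates. Candidates, here and for Pth1r, averaged at least 5 FPKM. Small RNAs and genes whose symbols start with Gm and a number or end in Rik were left out. Likeness was the root mean square difference between centred log2(FPKM + 1) profiles, which ran from 0.25 for Acss3 to 0.43 for Cilp2. Cxcl14, a chemokine gene, was at 3.81 ± 0.805 FPKM in FP and 42.1 ± 6.40 FPKM in RR. Igfbp4, an inhibitor of insulin-like growth factors, was at 19.8 ± 4.01 FPKM in FP and 118 ± 38.4 FPKM in RR. For Pth1r the most alike were Hspg2, Itga10, Bcl7a, Thbs3 and Nim1k, at differences of 0.13 to 0.15. Hspg2, the perlecan gene of cartilage matrix, was at 551 ± 47.2 FPKM in FP and 154 ± 36.3 FPKM in RR, and Itga10, a collagen-binding integrin of chondrocytes, at 38.7 ± 6 FPKM in FP and 10.4 ± 1.90 FPKM in RR. All of these were chosen for the same difference between the groups that Pthlh and Pth1r had, so their changes are no separate result.

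Chondrocyte markers were abundant in all 6 libraries: Col2a1, the collagen II gene, was at 41100 to 74200 FPKM in FP and at 38700 to 81900 FPKM in RR. The summed levels of 8 marker lists, for chondrocytes, osteoblasts, muscle, red blood cells, endothelium, leukocytes, osteoclasts and perichondrium, overlapped between the groups in every list. Single genes carry some of these sums, such as Col2a1 that of the chondrocyte markers. Over all genes tested, 8.74% were higher and 7.28% lower in FP without overlap. Of the 48 markers tested, 8 were higher and 3 lower in this way. Those higher were Acan, Sox9, Col11a1, Matn3 and Comp of the 8 chondrocyte markers, Ibsp and Sp7 of the osteoblast list and Actn3 of muscle. Those lower were Scx, Pdgfra and the endothelial gene Tek. Acan, the aggrecan gene, was at 1760 ± 383 FPKM in FP and 941 ± 337 FPKM in RR (limma adjusted p = 0.456), and Matn3, a cartilage matrilin gene, at 377 ± 144 FPKM in FP and 145 ± 41.5 FPKM in RR (limma adjusted p = 0.206). Muscle markers summed to 119 to 208 FPKM in FP, and to 198, 31.2 and 41.5 FPKM in RR libraries 11, 14 and 16. Of these 8 muscle markers, 0 passed limma's adjusted test. At an unadjusted p under 0.05, 3 were higher and 0 lower in FP, against 10.3% of all genes in either direction. Perichondrial markers summed to 46.0 to 97.3 FPKM in FP and 56.7 to 104 FPKM in RR. Besides Sp7, the marker called was Comp, a cartilage matrix gene, at 2590 ± 190 FPKM in FP and 221 ± 61.6 FPKM in RR. RR 14 stood apart from the other 5 libraries on the first principal component, with 29.2% of the variance, at 76.9 against -38.5 to 19.5. It was also the shallowest as read from the steps between low values. By these steps, 1 fragment on a transcript of 2000 bp was worth 0.128 to 0.255 FPKM in FP and 0.176 to 0.298 FPKM in RR. That is a 2.33-fold range, and any scaling between libraries would enter it. RR 14 had 4526 genes listed at 0, and FP 11, the deepest by the steps, had 4751. Without RR 14 the log2 changes of Pthlh and Pth1r were -3.01 and 1.76.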

How the data were processed

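The deposited values are FPKM per gene symbol, 1 column per library, made by the authors. Cuffdiff 2.2.1, TopHat2 2.1.1, SAMtools 0.1.18, Bowtie2 2.2.8 and build mm10 are named in the submitters' processing notes. Per the labels' protocols, total RNA from laser-cut frozen sections was made into libraries with a stranded kit for very small inputs. The sources used here give neither the annotation, nor any scaling between libraries, nor the use of strand. FPKM holds no counts, so total depth is unknown. Relative depth came from low values of genes with 1 GENCODE M21 transcript, of which 70.9% to 73.5% were whole within 0.1 fragments. Fragments per gene are approximate and use its longest transcript.

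Values were tested as log2(FPKM + 1), which understates changes of low genes, by lmFit and eBayes (intensity trend) of limma 3.58.1, in R 4.3.3. The two-sided contrast, FP minus RR, covered the 14789 genes averaging at least 1 FPKM, and p was adjusted by the Benjamini-Hochberg method over all of them. The fit was tested on simulated data. Folds are ratios of mean FPKM. No label says whether each library is another animal. The p-values therefore reflect only how these libraries vary, which may be technical.

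The genes and lists were chosen with earlier results of these data known. Named genes are the 9, the genes of each pathway list past the test or else the 2 with the smallest p, 9 pathway genes named whatever their p, and the 5 most like Pthlh and Pth1r. Alternatives were another pseudocount, filter, trend, scaling and weighting, a replicate block, and leaving out libraries. Coordinates follow GENCODE M21 (mm10). RefSeq promoters were searched for 6 of the 9 genes. Sik1 and Crtc2 had no entry that was used, and promoters on chromosome 18, where Zfp521 lies, were left out of the search. Protein sequences were not used here.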

Additional observations from a re-analysis of the deposited data

How the results depend on the processing

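The values below are log2 changes, FP minus RR, or numbers of genes past the adjusted threshold. Of the 9 genes, none changed sign under any alternative in which it was tested (17, or 16 for Sik1). Pthlh ran from -3.22 to -2.69 over all 17, passed the threshold in 15 and missed it without both libraries numbered 14 or both numbered 16 (adjusted p = 0.0588 and 0.0904). Pth1r ran from 1.51 to 1.97 over all 17 and passed in 9, and without both libraries numbered 11, 14 or 16 its adjusted p was 0.128, 0.364 and 0.288. The other 7 passed in 0 alternatives, and the lowest adjusted p of Sik2 was 0.114. Thus 0 of the 9 were higher in FP without both libraries numbered 11, 14 or 16 (0 to 1 without 1 library), and 0 lower without both 14 or both 16. Over all genes, 46 were higher and 37 lower without the intensity trend, 27 to 56 and 15 to 35 without 1 library, 26 and 16 without both libraries numbered 11, 6 and 2 without both 14, and 16 and 4 without both 16. With the replicate block 160 genes were higher and 111 lower, and 5 pathway genes were higher, with Cab39, Mef2c and Ccnd1 added (adjusted p = 0.0379, 0.0124 and 0.0409). The calls of the 9 genes were as without the block. The main fit did not use the numbers as pairs, and no label says whether they are animals. Deviations of same-numbered libraries correlated at 0.32, 0.18 and 0.09 across genes, and every library correlated best with its own number. On the second principal component, with 25.1% of the variance, library 11 was highest and library 14 lowest in each group. The block fit is therefore given beside the main one. Without both libraries numbered 14, 0 pathway genes were higher, and Col10a1 and Ihh had an adjusted p of 0.0588. Among named genes that did not pass, signs turned for Creb1 (-0.48 to 0.11 without 1 library, 0.16 without both 16), Gnas (-0.14 with quantile normalization, -0.09 rescaled, -0.18 to 0.3 without 1 library, -0.12 without both 11), Stk11 (0.03 with library weights, -0.32 to 0.15 without 1 library, 0.03 without both 16) and Stradb (-0.58 to 0.01 without 1 library, 0.17 without both 14). The cause was not tested. Depth limits Sik1 and the FP values of Pthlh most, with about 13 to 39 fragments for Sik1 in a library.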
